A study of Mus musculus with 7 samples.

Results

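The genes described here are the replication-dependent histone genes of the mouse. They were chosen as the protein-coding genes whose symbol starts with Hist1h, Hist2h, Hist3h or Hist4h in the GENCODE M21 annotation of the GRCm38 genome. The annotation held 67 such genes, of which 59 were among the 38124 genes of the count table. Their mRNA was measured by RNA-Seq in embryonic neural cells sorted from dissociated mouse neocortex, in 3 control libraries and 4 libraries labelled Sox9. All embryos were heterozygous for Tis21-CreERT2, an allele in which a tamoxifen-activated Cre recombinase replaces the first exon of Tis21, a gene switched on in progenitors that are about to produce neurons. Mothers of both groups received tamoxifen, embryos were electroporated at E13.5 and their cortices were taken 48 hr later, at E15.5, when cells with high red fluorescence were collected.

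The control construct carried the ubiquitous pCAGGS promoter, a floxed membrane GFP and, behind it, a nuclear red fluorescent protein (RFP). The Sox9 construct was identical but for the Sox9 coding sequence, which preceded the RFP behind an internal ribosome entry site. By design, Cre switches on RFP with either construct, and Sox9 with it only from the second; the measured Sox9 mRNA is given below. Only cells that took up plasmid and had expressed Tis21, and the cells descended from them, were marked, and cortices of several embryos and mothers were pooled before sorting. The labels call the replicates biological, with no further record of which litters entered which library.

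Replication-dependent histone genes make the linker histone H1 and the core histones H2A, H2B, H3 and H4 that package newly copied DNA, and they are known to be expressed mainly in S phase. Unlike other mRNAs, most of their transcripts end in a short hairpin, the histone 3′ stem-loop, in place of a poly(A) tail, and the stem-loop binding protein Slbp attends their processing and translation. Some of these genes also make a longer, polyadenylated transcript, which is known from cells that differentiate or have left the cell cycle. The libraries here were primed with poly-dT, so every histone count below came from a protocol that starts cDNA at runs of A.

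The stem-loop was looked for in the 150 bases after the stop codon of every annotated transcript. It was found in 46 of the 67 histone genes (68.7%), against 54 of 21951 protein-coding genes (0.246%), histone genes included. It started between base 22 and base 59 after the stop codon. Of the 21 histone genes without it, 17 had under 50 bases of 3′ UTR in the annotation, so that the annotated transcript may end before the site. The sequences below belong to some of the histone genes with a stem-loop that are named in later paragraphs. They are given 5′ to 3′ on the strand of the gene in GRCm38. Capitals mark the 16 bases of the stem-loop, whose position is given, and small letters mark the neighbouring bases.
Hist3h2a, chr11:58955172-58955187, plus strand: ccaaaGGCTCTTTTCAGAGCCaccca
Hist3h2ba, chr11:58949349-58949364, plus strand: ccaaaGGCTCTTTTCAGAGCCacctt
Hist1h1d, chr13:23555787-23555802, plus strand: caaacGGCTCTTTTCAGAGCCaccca
Hist1h1c, chr13:23739512-23739527, plus strand: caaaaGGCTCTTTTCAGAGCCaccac
Hist1h1t, chr13:23696525-23696540, plus strand: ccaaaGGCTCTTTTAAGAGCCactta
Hist1h2ac, chr13:23683477-23683492, minus strand: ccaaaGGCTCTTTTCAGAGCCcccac
Hist1h4i, chr13:22040966-22040981, minus strand: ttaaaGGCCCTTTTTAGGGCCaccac
Hist4h4, chr6:136803998-136804013, minus strand: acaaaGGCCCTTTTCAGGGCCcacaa

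The 46 stem-loops came in 8 spellings. The form of Hist3h2a, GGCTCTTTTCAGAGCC, was the most frequent and stood in 26 genes, 3 of H1, 10 of H2A, 8 of H2B and 5 of H3. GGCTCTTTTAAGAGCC, which Hist1h1t has, stood in 6 genes. The 12 H4 genes with a stem-loop had none of these spellings, and 7 of them had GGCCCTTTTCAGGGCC.

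The libraries held between 4429704 and 12907778 counts, with the lowest total in a library labelled Sox9. Sox9 itself stood at 40.0 ± 8.33 CPM in the libraries that carry its label (SD, n = 4; CPM are counts scaled to a common library size by the TMM method) against 63.9 ± 27.5 CPM in control (SD, n = 3), a log2 fold change of -0.68 with an adjusted p of 0.0493 in edgeR. It was thus not higher there, and the groups are called by their labels throughout. Other genes differed between the groups: Eomes, a marker of intermediate progenitors, fell by 2.26 on the log2 scale (37.5 ± 10.7 to 7.86 ± 1.63 CPM, adjusted p = 4.87e-05 in edgeR), and Olig2, a marker of oligodendrocyte precursors, had 0, 2 and 0 counts against 24, 6, 12 and 7 (adjusted p = 0.00371). These 2 genes were chosen after their values were seen. Markers of newborn neurons summed to 12600 to 15600 CPM in control and 11400 to 13400 CPM in the libraries labelled Sox9, those of radial glia to 534 to 1040 and 252 to 390 CPM, and those of intermediate progenitors to 160 to 192 and 93.1 to 123 CPM. Neuronal markers were thus abundant in every library of the cells labelled neural progenitors. Markers of oligodendrocyte precursors summed to 0.61 to 1.39 and 9.5 to 22.8 CPM, of endothelial cells to 1.43 to 7.21 and 9.86 to 17.8 CPM, of erythroid cells to 2.1 to 24.5 and 13.3 to 93.2 CPM, and of microglia to 7.65 to 25.5 and 9.65 to 40.0 CPM. The summed level of 1371 chemoreceptor genes, which cortical cells should lack, was 108 to 149 CPM in control and 337 to 478 CPM in the libraries labelled Sox9. The part of these differences in the results below was not tested. In such sorted pools, fewer cells of a type and less mRNA per cell cannot be told apart.

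Histone genes took a very small part of the counts. All 59 together had 7526 counts, which was between 0.00899% and 0.0140% of a library. Of the 59, 12 had no count in any library, 25 had 1 to 9 counts over all 7 libraries, and 22 had 10 or more. A count in every library was seen for 14 of them. For a gene without counts, the limit that a count of 0 allows (3 counts) was 0.261 to 0.629 CPM in a library, which covers counting error only.

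Counts lay on few genes. Hist3h2a, an H2A gene, had 3258 counts, and its neighbour Hist3h2ba, an H2B gene, had 1342. Another pair of H2B genes, Hist1h2bc and Hist2h2be, had 637 and 629. These 4 held 77.9% of all histone counts, and between 71.9% and 85.1% in each library. Hist3h2a came first in every library, and Hist1h1d was among the first 5 only in libraries labelled Sox9. The summed level of all 59 genes was 123 ± 19.6 CPM in control (SD, n = 3) and 115 ± 9.99 CPM in the libraries labelled Sox9 (SD, n = 4). Without TMM scaling these sums were 112 ± 19.6 and 122 ± 11.7 CPM, so their order depended on the scaling, and in both cases the groups overlapped.

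By family, H1 was the most completely seen, with 10 or more counts for each of its 6 genes. H2A had 3 such genes of 18 in the table, H2B 5 of 15, H4 7 of 13, and H3 had 1 of 7, Hist2h3c2 with 15 counts. The annotation holds 12 H3 and 18 H2B genes, so 5 and 3 of these were not analysed here and are missing from the sums. The summed levels were 55.7 ± 11.3 CPM for H2A, 46.9 ± 8.51 for H2B, 15.0 ± 2.98 for H1, 5.18 ± 1.61 for H4 and 0.510 ± 0.142 for H3 in control (SD, n = 3). In the libraries labelled Sox9 they were 53.2 ± 5.86, 40.6 ± 5.22, 15.2 ± 2.51, 5.17 ± 1.34 and 0.489 ± 0.226 CPM in the same order (SD, n = 4). The core histones, which enter the nucleosome in equal numbers, thus had very unequal numbers of counts over the genes in the table, and the order of the families was the same in both groups.

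The annotated 3′ end and the uniqueness of the sequence differed between the genes with many counts and those with few. Of the 59 genes, 22 had a transcript with an annotated 3′ UTR of at least 200 bases, and these held 95.2% of the histone counts, with a median of 55.5 counts over the 7 libraries. The other 37 held 4.76%, with a median of 3 counts. Histone genes are also alike in sequence, and a read that matches several genes may be lost or shared. Among the 8 genes in which under 10% of the 75-base words of the transcript, the read length, were found in no other gene, 7 had no count and the eighth had 2. With at least 50% of words unique, the median level per kilobase of exon over all libraries was 1.04 CPM for the 17 genes with the longer 3′ UTR and 0.124 CPM for the 14 with the shorter one. These classes were drawn with the counts known and are descriptions. Hist1h4f and Hist1h2aa had no count although 75.4% and 82.6% of their words were unique, and both had a 3′ UTR under 200 bases.

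**Figure D1:**
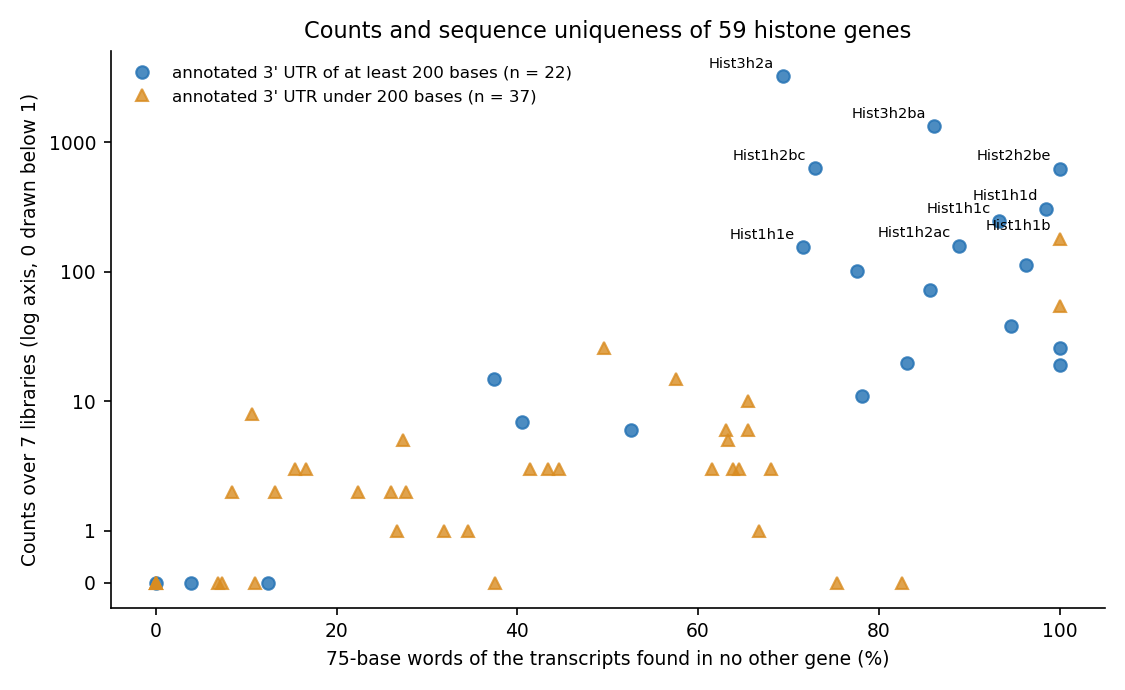
Counts over the 7 libraries (log axis, with 0 drawn below 1) of 59 histone genes against the share of 75-base words of their transcripts found in no other gene (%). Circles are the 22 genes with an annotated 3′ UTR of at least 200 bases and triangles the 37 others. Genes with 150 counts or more are named. Points with the same values lie on each other, as for the genes at 0 counts and 0%. The genes with many counts lie at the upper right, and of them Hist1h1b alone is a triangle.

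The gene models behind the deposited tables were not always those of GENCODE M21. The length that links counts and FPKM was found for 19 of the 22 genes with 10 or more counts. It was within 2 bases of the exonic length in M21 for 9 of them, among which were Hist3h2a, Hist3h2ba, Hist2h2be, Hist1h1c and Hist1h1b. It was shorter for 8, such as 743 against 7425 bases for Hist1h1d and 475 against 2482 bases for Hist1h2ac. The model behind the FPKM of these 8 genes was thus shorter than their exons in M21. For them the classes of 3′ UTR above and the levels per kilobase of exon rest on M21 and not on that model. For Hist1h2bc and Hist1h2be the length was 8289 and 37104 bases, longer than their exons. FPKM are used below only to set H1 genes beside each other, since each of the 6 is a single exon in the annotation. The lengths behind them still differed, at 1559 bases for Hist1h1c against 742, 743 and 747 for Hist1h1b, Hist1h1d and Hist1h1e. The order of H1 genes by FPKM thus depends on the models.

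Differences between the groups were tested for 12 histone genes, those that passed the filter on low counts, and these held 95.8% of the histone counts. At an adjusted p under 0.01 (edgeR's quasi-likelihood test, two-sided, Benjamini-Hochberg over 16522 genes), 1 of the 12 was higher in the libraries labelled Sox9, Hist1h1d, and 1 was lower, Hist1h1b. Over all genes tested, 11.3% were higher and 3.43% lower, 14.7% together, so the count of 2 of 12 was near the background. Higher genes were 76.7% of all calls over the whole table, 65.6% with DESeq2's size factors and 56.4% after cyclic loess normalisation. The groups did not overlap for 1 histone gene that was higher, Hist1h1d, against 22.9% of all genes tested, and for 2 that were lower, Hist1h1b and Hist2h2be, against 16.4%, or 39.3% in either direction. The fold changes of the 12 ran from -1.70 to 1.67 on the log2 scale, 5 above 0 and 7 below, with a median of -0.124, and the median of all genes tested was -0.0031.

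**Figure D2:**
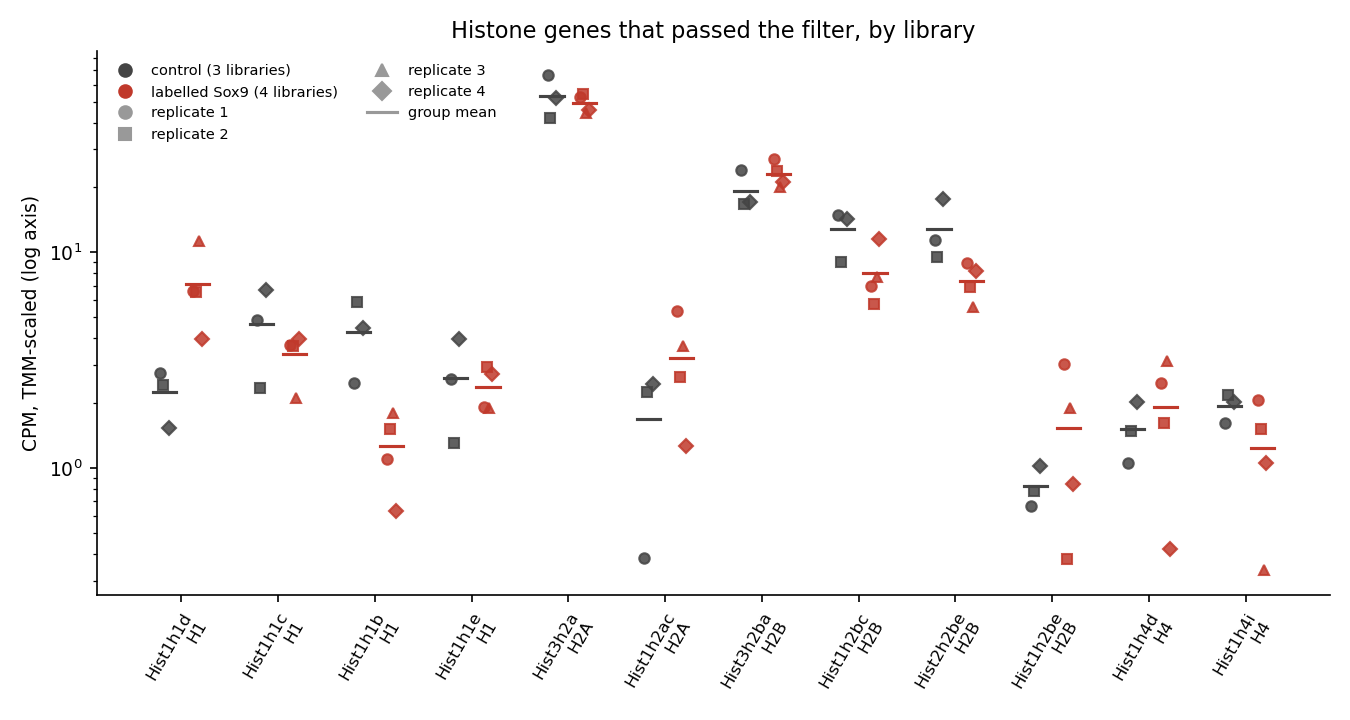
TMM-scaled CPM (log axis) of the 12 histone genes that passed the filter, in each of 3 control libraries (grey) and 4 libraries labelled Sox9 (red), ordered by histone family. The symbol gives the replicate number and the bar the mean of the group. The groups are apart for Hist1h1d, Hist1h1b and Hist2h2be and overlap for the other 9.

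Linker histones bind the DNA between nucleosomes and compact chromatin, and the Hist1h1 genes make its replication-dependent subtypes. Both calls fell in this family, in opposite directions. Hist1h1b, which makes the subtype H1.5 (GRCm38 chr13:21779883-21780625, minus strand, a single exon with no 3′ UTR annotated), was counted 26, 68 and 44 times in control, and 8, 16, 16 and 3 times with the Sox9 label. Every control library was above every library labelled Sox9, at 2.49, 5.91 and 4.48 CPM against 1.10, 1.51, 1.79 and 0.629 CPM. The log2 fold change was -1.70 (SE 0.433, adjusted p = 0.00959 in edgeR). The value lay close to the threshold, and the call was kept in 1 of the 7 fits that left out a library, that without control replicate 1. Over the 7 fits its adjusted p ran from 0.00628 to 0.0564, the highest without control replicate 2.

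Hist1h1d, which makes H1.3 (chr13:23553262-23560686, plus strand), was counted 29, 28 and 15 times in control, but 48, 69, 101 and 19 times with the Sox9 label. In CPM these were 2.77, 2.43 and 1.53 against 6.59, 6.52, 11.3 and 3.98, so that all 4 libraries labelled Sox9 were above the 3 controls, with the spread widest among the former. The log2 fold change was 1.67 (SE 0.387, adjusted p = 0.00607 in edgeR). It was called in 1 of the 7 fits that left out a library, that without Sox9 replicate 4, with adjusted p-values from 0.0035 to 0.0253, and not after cyclic loess normalisation (1.12, adjusted p = 0.0783).

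Fold changes over the whole table depended on the level of the gene. Genes with a mean log2 CPM under 1 had a median log2 fold change of 1.55, those from 1 to 2 of 1.08, those from 2 to 4 of 0.071, those from 4 to 6 of -0.171 and those above 6 of -0.26. Hist1h1d stood in the third of these classes with a mean log2 CPM of 2.38, and 497 of its 3818 genes were higher. Hist1h1b stood in the second with 1.55, in which 15 of 2419 genes were lower. Only 6 of the 12 histone genes tested had a mean log2 CPM of at least 2. Under cyclic loess, which removes such a trend, the median of the 12 was -0.862.

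The other H1 genes did not pass the threshold. Hist1h1c, which makes H1.2, had 4.87, 2.35 and 6.71 CPM in control and 3.71, 3.69, 2.12 and 3.98 CPM in the libraries labelled Sox9 (log2 fold change -0.47, SE 0.393, adjusted p = 0.386). Hist1h1e, which makes H1.4, had 2.58, 1.30 and 3.97 CPM against 1.92, 2.93, 1.90 and 2.73 CPM (-0.14, SE 0.432, adjusted p = 0.836). It overlaps Hist1h2be and Gm11398 on the same strand, so the assignment of its reads is uncertain. Hist1h1a, which makes H1.1, was removed by the filter, with control counts of 7, 13 and 17 against 6, 4, 7 and 1 under the Sox9 label.

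Hist1h1t, the linker histone known from the testis, had no count in the 3 control libraries, while 3, 11, 2 and 3 counts were found in those labelled Sox9. Against a floor of 3 counts in each control library, its mean of 0.576 CPM was at least 2.03-fold higher. The gene did not pass the filter. In a fit without a filter its adjusted p was 0.00351 (edgeR), and DESeq2 gave it no adjusted p-value. In that fit without a filter, 2661 of 32483 genes were higher, and the median log2 fold change of all was 0.515. Per kilobase of exon its level was 0.245 to 1.14 CPM in the libraries labelled Sox9. That of all chemoreceptor genes pooled was 0.0218 to 0.0301 CPM in control and 0.0679 to 0.0963 CPM in the libraries labelled Sox9. Single chemoreceptor genes rose as well. Of 97 tested, 96 had a fold change above 0 and 13 were called higher, with log2 fold changes of up to 6.59.

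The summed level of H1, 15.0 ± 2.98 CPM in control (n = 3) and 15.2 ± 2.51 CPM in the libraries labelled Sox9 (n = 4, SD for both), overlapped between the groups while the shares of Hist1h1b and Hist1h1d did not. Hist1h1b took 18.6%, 45.0% and 24.3% of the control H1 counts and 7.55%, 9.41%, 9.88% and 5.17% under the Sox9 label. Hist1h1d took 20.7%, 18.5% and 8.29% in control and 45.3%, 40.6%, 62.3% and 32.8% in the others. For each count of Hist1h1b there were 1.12, 0.412 and 0.341 counts of Hist1h1d in control, but 6.0, 4.31, 6.31 and 6.33 under the Sox9 label. These genes are the ones called in the same comparison, so the shares describe the calls and were not tested again. On the deposited FPKM scale (fragments per kilobase of gene and library size), Hist1h1b led the H1 genes in control at 5.26 ± 2.07 FPKM, before Hist1h1e at 3.22 ± 1.72 and Hist1h1c and Hist1h1d, both at 2.74 (SD 1.35 and 0.736, n = 3). In the libraries labelled Sox9 Hist1h1d led at 10.2 ± 4.58 FPKM, before Hist1h1e at 3.37 ± 0.659, Hist1h1c at 2.30 ± 0.565 and Hist1h1b at 1.80 ± 0.726 (SD, n = 4). The order in control rests on the division by length. In CPM, Hist1h1c stood at 4.64 ± 2.19 and Hist1h1b at 4.29 ± 1.72 there, and Hist1h1c had the larger share of the H1 counts in 2 of the 3 libraries. On the FPKM scale the control means of neighbours lay less than the larger of their SDs apart. In the libraries labelled Sox9 this held for Hist1h1c and Hist1h1b, but not for Hist1h1d and Hist1h1e or for Hist1h1e and Hist1h1c.

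**Figure D3:**
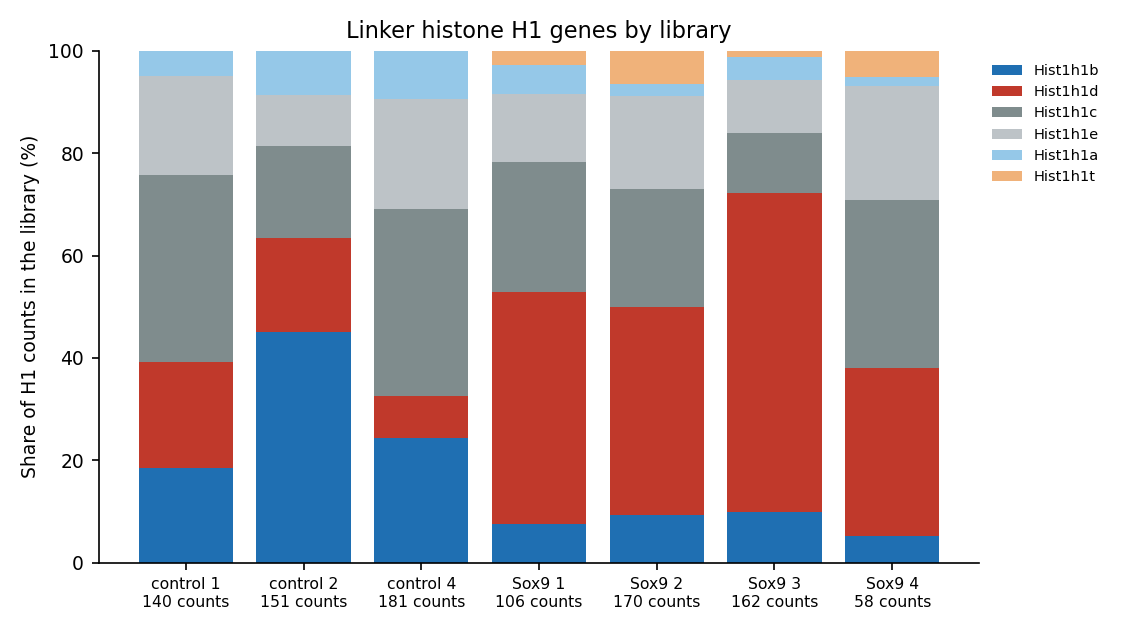
Share of each of the 6 H1 genes in the H1 counts of a library (%), as stacked bars for 3 control libraries and 4 libraries labelled Sox9, with the number of H1 counts under each bar. Hist1h1b took 18.6% to 45.0% in control and 5.17% to 9.88% in the libraries labelled Sox9, and Hist1h1d 8.29% to 20.7% and 32.8% to 62.3%. Hist1h1t appears in the latter libraries alone.

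The promoters of the genes called are shown because their fold changes had opposite signs. Both are RefSeq sequences in GRCm38.p6, from 250 bases before to 50 bases after the start of the gene in RefSeq, 5′ to 3′ on its strand. For Hist1h1b this start is that of M21, and for Hist1h1d it is base 23555032 of chromosome 13, 1770 bases inside the longer gene of M21. Capitals mark CCAAT and TATAAA on either strand, so that ATTGG and TTTATA are capitals as well.
Hist1h1b, chr13:21780576-21780875, minus strand: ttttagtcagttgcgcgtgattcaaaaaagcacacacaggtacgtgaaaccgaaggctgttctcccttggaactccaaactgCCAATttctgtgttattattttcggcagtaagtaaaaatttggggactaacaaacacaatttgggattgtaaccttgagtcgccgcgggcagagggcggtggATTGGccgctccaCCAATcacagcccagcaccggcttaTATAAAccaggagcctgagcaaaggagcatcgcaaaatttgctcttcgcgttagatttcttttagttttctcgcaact
Hist1h1d, chr13:23554782-23555081, plus strand: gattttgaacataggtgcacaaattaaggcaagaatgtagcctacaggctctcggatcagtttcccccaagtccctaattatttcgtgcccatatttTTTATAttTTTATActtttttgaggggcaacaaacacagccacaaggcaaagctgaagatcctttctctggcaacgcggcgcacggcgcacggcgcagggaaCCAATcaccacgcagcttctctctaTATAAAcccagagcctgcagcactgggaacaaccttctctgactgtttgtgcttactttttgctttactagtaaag

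Both promoters thus held CCAAT followed by TATAAA shortly before the start. Promoters were matched for 55 of the 67 histone genes. CCAAT was found in 46 of the 55 (83.6%), against 37.4% of 32851 promoters of the same length, and TATAAA in 32 (58.2%), against 13.6%. CCAAT stood in every matched promoter of H1, H2A, H2B and H3 and in 3 of 12 of H4. The octamer ATTTGCAT, a site known to be bound by Oct factors, stood in 12 (21.8%), 7 of H2A and 5 of H2B, against 1.74% of all promoters. Such matches are letters in a window and not binding sites.

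The H2A gene Hist3h2a (chr11:58954685-58956830, plus strand) had the most counts of any histone gene in every library. Its levels were 66.1, 41.9 and 52.0 CPM in control and 52.7, 54.4, 44.2 and 45.7 CPM in the libraries labelled Sox9, which lay within the range of the controls. The log2 fold change was -0.11 (SE 0.163, adjusted p = 0.634 in edgeR), and it was above 0 without control replicate 1, under cyclic loess and with a stricter filter. The annotation has 1643 bases of transcript after its stem-loop. It overlaps Trim17 on the same strand and Gm44313 on the other, and whether counting used strand is not given in the sources used here. The tested gene whose level followed it most closely over the 7 libraries was Pacsin2 (Spearman's rho 0.964, Pearson's r 0.969 on log2 CPM), followed by Stk25, Adamts17, Sla and Fbxo32, given as a description.

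Hist1h2ac, the only other H2A gene tested, had 0.382, 2.26 and 2.44 CPM in control and 5.36, 2.65, 3.69 and 1.26 CPM in the libraries labelled Sox9, where all but replicate 4 exceeded the controls (log2 fold change 0.95, SE 0.562, adjusted p = 0.208). The third H2A gene with 10 counts, Hist1h2ae, had 7 of them in 1 control library.

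Among the H2B genes, Hist3h2ba (chr11:58948920-58949533, plus strand) had 24.0, 16.7 and 17.2 CPM in control and 27.1, 23.9, 20.0 and 21.2 CPM in the libraries labelled Sox9 (log2 fold change 0.26, SE 0.194, adjusted p = 0.325). Its annotated transcript ends 169 bases after the stem-loop. The groups overlapped through control replicate 1.

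Hist2h2be (chr3:96221119-96223738, plus strand) had 11.4, 9.56 and 17.6 CPM in control and 8.93, 6.90, 5.59 and 8.18 CPM in the libraries labelled Sox9. The groups did not overlap, and the log2 fold change of -0.80 (SE 0.268) did not pass the threshold, with an adjusted p of 0.0337. Without a filter on low counts it did, with an adjusted p of 0.00754. Hist1h2bc (chr13:23684199-23692908, plus strand) had 14.9, 9.04 and 14.3 CPM against 7.0, 5.76, 7.71 and 11.5 CPM, of which the last was within the range of the controls (-0.70, SE 0.276, adjusted p = 0.0648). Both genes have an annotated 3′ UTR, of 2192 and 742 bases, in which no stem-loop was found within the window. Hist1h2be had 0.669, 0.782 and 1.02 CPM against 3.02, 0.378, 1.90 and 0.839 CPM (0.89, SE 0.621, adjusted p = 0.289), with 22 and 17 of its 73 counts in Sox9 replicates 1 and 3.

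Hist1h2bj, which the filter removed, had control counts of 7, 6 and 9 against 3, 0, 0 and 1 under the Sox9 label, so that the groups were apart in CPM as well, at 0.521 to 0.915 against 0 to 0.412. In the fit without a filter its log2 fold change was -2.36 with an adjusted p of 0.0541.

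H2A and H2B genes often lie head to head and share the stretch between their starts. In GRCm38, 12 such H2A and H2B pairs had starts 175 to 305 bases apart, and for all 12 both genes were in the count table. The counts of a pair could be far apart. Hist2h2be had 629 counts and its partner Hist2h2ac 6. Hist1h2ac and Hist1h2bc, whose starts are 250 bases apart, had 160 and 637 counts and fold changes of 0.95 and -0.70, neither past the threshold. The stretch between them is shown on the strand of Hist1h2ac, from RefSeq in GRCm38.p6, as an example of a promoter that serves genes of unequal counts. Capitals mark the octamer, CCAAT and TATAAA on either strand.
Hist1h2ac, chr13:23683910-23684209, minus strand: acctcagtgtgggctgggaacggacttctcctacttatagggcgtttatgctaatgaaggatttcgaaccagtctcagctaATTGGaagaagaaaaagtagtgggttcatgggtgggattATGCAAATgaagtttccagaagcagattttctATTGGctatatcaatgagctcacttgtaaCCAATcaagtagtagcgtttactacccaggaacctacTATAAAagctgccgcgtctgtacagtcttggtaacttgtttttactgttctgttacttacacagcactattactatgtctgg

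H3 and H4 form the tetramer at the heart of the nucleosome. No H3 gene passed the filter on low counts. Hist2h3c2 had control counts of 4, 3 and 0 against 3, 2, 2 and 1 under the Sox9 label, and in a fit without the filter its log2 fold change was 0.144 (edgeR, adjusted p = 0.945). Hist1h3e had 7 counts over all libraries and Hist1h3a, Hist1h3b and Hist1h3c had 3 each, and Hist2h3c1 and Hist2h3b, which share every 75-base word with other genes, had none. Of the H4 genes, Hist1h4d had 1.05, 1.48 and 2.03 CPM in control and 2.47, 1.61, 3.13 and 0.419 CPM in the libraries labelled Sox9 (log2 fold change 0.38, SE 0.526, adjusted p = 0.619), with the lowest and the highest value both in the latter. Hist1h4i had 1.62, 2.17 and 2.03 CPM against 2.06, 1.51, 0.335 and 1.05 CPM (-0.65, SE 0.515, adjusted p = 0.357). Hist4h4, the only gene of its cluster, was not tested, with control counts of 0, 4 and 13 against 3, 11, 6 and 1 under the Sox9 label.

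The genes that make, process, replace and carry histones, none of them members of the Hist clusters, were counted in the same fit. The mRNA of most of these is polyadenylated. Among 33 S-phase genes, which replicate DNA, supply its nucleotides or, as cyclins, Cdk2, E2f1, Uhrf1 and Hells, control the cell cycle or act on chromatin, 23 were lower in the libraries labelled Sox9 and none higher, with a median log2 fold change of -1.08. Mcm3, part of the replicative helicase, fell by 2.80 (97.3 ± 41.2 to 13.6 ± 4.62 CPM), and Rrm2, a subunit of ribonucleotide reductase, fell by 2.29 (387 ± 109 to 78.7 ± 11.9 CPM). Pcna, the sliding clamp, fell by 0.89. At an unadjusted p under 0.05, 29 of the 33 were lower and none higher, and DESeq2 called 24 lower and none higher. Hist1h1b alone of the 12 histone genes tested was called in the direction of these 23. Over all genes tested, 26.8% were higher and 17.3% lower at an unadjusted p under 0.05, and DESeq2 called 11.0% higher and 7.42% lower of the 18753 genes to which it gave an adjusted p. At the reported threshold, 11.3% of all genes tested were higher and 3.43% lower. The counts of this list and of those below stand against these shares. The medians of the lists stand against the trend with level given above. All genes had a median of -0.171 at a mean log2 CPM from 4 to 6, and of -0.26 above 6. After cyclic loess the median of the 12 histone genes was -0.862, so their place beside these lists depended on the normalisation. Whether the histone genes and the S-phase genes differed in their response was not tested.

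**Figure D4:**
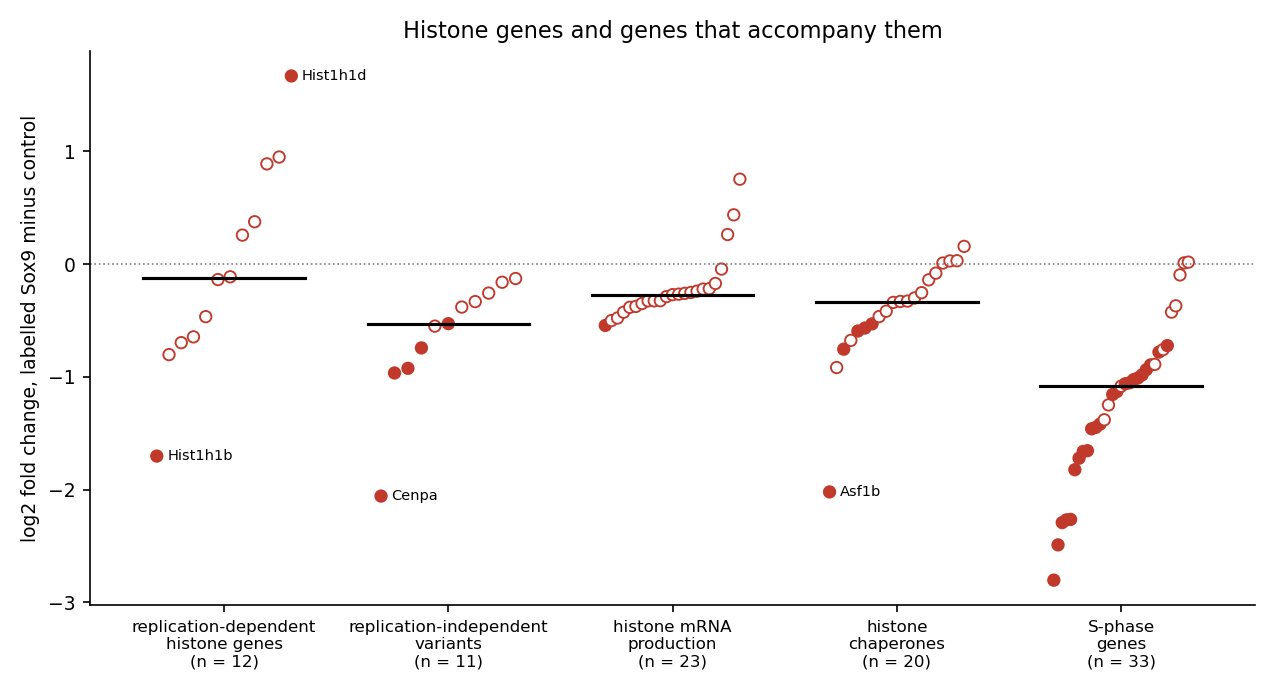
Log2 fold change, libraries labelled Sox9 minus control, of the 12 histone genes tested and of 4 lists of genes that accompany them. Filled points have an adjusted p under 0.01 and bars are medians, at -0.124 for the histone genes, -0.528 for the replication-independent variants, -0.271 for histone mRNA production, -0.335 for histone chaperones and -1.08 for S-phase genes. The histone genes spread on both sides of 0, and the S-phase genes lie almost all below it. The values are not corrected for the trend of fold changes with level. After cyclic loess normalisation the median of the histone genes was -0.862.

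Replication-independent histone variants are made outside S phase as well, mostly from polyadenylated mRNA. Of 11 such genes, 5 were lower and none higher in the libraries labelled Sox9, beside 3.43% lower and 11.3% higher of all genes tested. All 11 fold changes were below 0 (median -0.528). At an unadjusted p under 0.05, 7 were lower and none higher, beside 17.3% lower and 26.8% higher of all genes. DESeq2 called the same numbers of variants. H2afz, which makes H2A.Z, had 662, 987 and 931 CPM in control and 489, 483, 328 and 513 CPM in the libraries labelled Sox9 (log2 fold change -0.92, SE 0.162, adjusted p = 0.00133), with no overlap. Its relative H2afv fell by 0.97 and H2afy, which makes macroH2A1, fell by 0.53. The call of H2afy was lost in 6 of the 7 fits that left out a library, all but that without control replicate 1 (adjusted p of up to 0.0479), and after cyclic loess (adjusted p = 0.134). H1f0, the linker histone of cells that have left the cell cycle, had 77.2, 80.0 and 84.4 CPM against 44.9, 53.4, 47.2 and 46.8 CPM (-0.74, SE 0.125, adjusted p = 0.00103). Cenpa, the H3 variant of centromeres, fell by 2.06 (26.6 ± 8.92 to 6.41 ± 0.894 CPM). After cyclic loess, and with glmTreat against a 1.5-fold change, 1 variant was still called lower, Cenpa. The calls of H2afz, H2afv, H2afy and H1f0 were thus lost in both.

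H3f3b, one of a pair of genes for H3.3, was recorded at 4070 ± 306 CPM in control and 3120 ± 389 CPM in the libraries labelled Sox9 (log2 fold change -0.38, adjusted p = 0.0245), which did not pass the threshold. It passed with DESeq2 (-0.464, adjusted p = 0.00644) and without a filter (-0.47, adjusted p = 0.00246), and was at -0.109 after cyclic loess (adjusted p = 0.508). The other, H3f3a, had 124, 124 and 134 CPM against 113, 99.9, 88.5 and 103 CPM (-0.33, adjusted p = 0.0437), and passed with DESeq2 (adjusted p = 0.00982) but not without a filter (adjusted p = 0.0235). H3f3b alone took more counts in every library than the 59 replication-dependent histone genes together. H2afx, the damage-responsive H2A variant, had 3.50 ± 1.57 and 2.46 ± 1.40 CPM (-0.55, adjusted p = 0.397).

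Of 23 genes for transcription and processing of histone mRNA, 1 was lower, Slbp, and none higher (median -0.271), near the 3.43% of all genes that were lower. At an unadjusted p under 0.05, 8 were lower and 1 higher, beside 17.3% lower and 26.8% higher of all genes, and DESeq2 called 2 lower and 1 higher. Slbp had 70.8, 84.3 and 71.5 CPM in control and 52.2, 52.4, 47.7 and 55.2 CPM in the libraries labelled Sox9 (log2 fold change -0.54, SE 0.128, adjusted p = 0.00647), with no overlap. The call was lost in each of the 7 fits that left out a library, where the fold change stayed between -0.605 and -0.454. Npat, the activator that gathers at histone gene clusters, had 64.0 ± 11.8 and 45.8 ± 10.9 CPM (-0.48, adjusted p = 0.0546). Lsm11, a protein of the U7 particle that cuts histone transcripts, was at 12.7 ± 0.890 and 21.5 ± 3.68 CPM (0.75, adjusted p = 0.0113), and the groups were apart.

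Of 20 histone chaperones, which carry histones to and from DNA, 5 were lower and none higher (median -0.335). Of all genes tested, 3.43% were lower and 11.3% higher. At an unadjusted p under 0.05, 10 were lower and none higher, beside 17.3% lower and 26.8% higher of all genes, and DESeq2 called 6 lower and none higher. Asf1b, which hands on H3 and H4 in dividing cells, fell by 2.02 (17.3 ± 4.66 to 4.23 ± 1.09 CPM), while its relative Asf1a had 18.8 ± 2.74 and 15.0 ± 2.88 CPM (adjusted p = 0.234). Chaf1b, a subunit of the assembly factor CAF-1, fell by 0.75 and Ubn1, part of the HIRA complex, fell by 0.59. Nap1l1, a chaperone of H2A and H2B, fell by 0.57 and Nasp, which holds the H3 and H4 reserve, fell by 0.53. Leaving out 1 library brought the count of lower chaperones to between 1 and 5. Asf1b was called in all 7 such fits, Nap1l1 in 5, Chaf1b in 3, Nasp in 2 and Ubn1 in 1. After cyclic loess, and with glmTreat against a 1.5-fold change, Asf1b was the only chaperone still called lower.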

How the data were processed

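Sorted cells gave 3 control RNA-Seq libraries and 4 labelled Sox9. Reads were adapter-trimmed and aligned to GRCm38 (mm10) with STAR 2.5.2b per the labels and methods, and the program that counted reads on genes, its use of strand and its treatment of reads with several matches are not given in the sources used here. The count table deposited by the authors holds whole-number counts for Ensembl genes that were not normalized. They also deposited FPKM values, scaled by gene length and library, which were used for the length of the gene models and the levels of H1 genes. Groups and replicate numbers follow the sample titles. P-values measure the spread between these libraries.

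Of 38124 genes, 36345 were matched to GENCODE M21 by identifier. Counts were fitted with edgeR 4.0.16 in R 4.3.3 (TMM scaling, filterByExpr, two-sided quasi-likelihood test with no covariate), with Benjamini-Hochberg adjustment across 16522 genes and a threshold of 0.01. limma 3.58.1 and DESeq2 1.42.0 served as alternatives. The script was tested on simulated data. Members, gene lists, classes of 3′ end and named genes (per family the 3 with the highest mean CPM and the 2 with the smallest p, every gene past the threshold, and Slbp, Npat, H3f3a, H3f3b, H2afz, H2afx and H1f0) were chosen with earlier results of these data known. Lsm11, Asf1a, Hist1h2ae, Hist1h2bj, Hist2h2ac, Hist1h4f, Hist1h2aa and the S-phase examples were named after their values were seen. Stem-loops were searched in annotated transcripts, and promoters came from RefSeq. Intervals and floors cover counting error only.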

Additional observations from a re-analysis of the deposited data

Results flagged for a closer look

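For 27 genes, the 12 histone genes tested and 15 partner genes, in the 4 libraries labelled Sox9, the lowest or highest library was compared with the others, and chance flags about 1 in 20 such cases. H2afz had its lowest value, 328 CPM, in Sox9 replicate 3, with a gap to the nearest library of 0.84 of the range of the group. Hist1h1c had its lowest value, 2.12 CPM, in the same library, with a gap of 0.839 of the range. The same library had the highest level of Hist1h1d in its group, 11.3 CPM. The control group, with 3 libraries, was too small for this comparison.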

How the results depend on the processing

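The count of 1 histone gene higher was 0 after cyclic loess, with glmTreat against a 1.5-fold change and with either replicate block, and 2 without a filter. The count of 1 lower was 0 with at least 10 counts in every library, with protein-coding genes only, with glmTreat and with either block, and 2 without a filter and at an adjusted p under 0.05. The median log2 fold change of the histone genes was -0.862 after loess. For mRNA production, 1 gene was higher with DESeq2, with at least 10 counts, with protein-coding genes only and at 0.05, against 0 as reported, and the count of 1 lower was 2 with DESeq2, 0 after loess, 2 without a filter, 0 with at least 10 counts, 3 at 0.05 and 0 with glmTreat. The 5 lower variants were 1 after loess and with glmTreat, and the 5 lower chaperones were 1 after loess, with at least 10 counts and with glmTreat. The 23 lower S-phase genes were 13 with glmTreat. Sox9 passed the threshold without a filter (-0.776), at 0.05 (-0.68) and without control replicate 1 (-0.991, adjusted p = 0.00281).

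Whether the replicate numbers pair the libraries was not settled. Deviations of libraries with the same number correlated at -0.0356, 0.118 and -0.00485 by the titles, and at -0.0356, 0.118 and 0.017 by the descriptions. Those of libraries with different numbers correlated at -0.0954 to 0.0776, and so few pairs cannot decide the question. The fits with a block are given only in this section. With the replicate block by titles or by descriptions, 0 histone genes were higher, 0 were lower and 0 mRNA production genes were lower, and by titles 2 chaperones were lower.

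Leaving out 1 library at a time gave 0 to 1 histone genes higher, 0 to 1 lower, 0 to 1 mRNA production genes higher and 0 lower, 1 to 5 chaperones lower and a Sox9 fold change of -0.991 to -0.366. The sign of 4 uncalled genes turned. Hist3h2a was at 0.12 after loess and 0.0271 with at least 10 counts, and between -0.253 and 0.0558 with 1 library left out, the highest without control replicate 1. Hist1h4d was at -1.16 after loess and -0.0354 with the block by titles, and Hist1h2be at -1.02 after loess. Hist1h1e was at 0.00106 with at least 10 counts, 0.0686 with the block by titles and between -0.464 and 0.309 with 1 library left out, the highest without control replicate 4. The cause was not tested. The fold changes of Hist1h1b and Hist1h1d kept their sign under all alternatives that gave a value, from -2.73 to -1.40 and from 1.12 to 1.91. With 7526 histone counts in all, low counts limit every statement on the 47 genes that the filter removed. Of these, 8 had under 10% unique 75-base words and 7 of the 8 had no counts, so that more depth need not add counts for them. The same 46 stem-loops were found in a window of 300 bases.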
